A study of Mus musculus with 8 samples.

Results

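The genes described here are 10 that write, bind or accompany methylation of lysine 9 of histone H3 (H3K9). They are the H3K9 methyltransferase genes Suv39h1, Suv39h2, Ehmt1, Ehmt2 and Setdb2, the heterochromatin protein 1 (HP1) genes Cbx1, Cbx3 and Cbx5, and Atrx and Daxx. They were chosen by symbol, and all 10 were found among the 24222 gene symbols of the count tables. The study compared Kdm4a/b/c triple knockout (KO) mice with wild-type (WT) controls, all on a C57BL6 background, with 4 mice and 1 RNA-seq library per mouse in each group. Haematopoietic stem cells, the bone marrow cells that renew themselves and give rise to blood, were sorted by flow cytometry 2 weeks after the deletion was induced. The sort markers, the driver and agent that induced the deletion, the age and sex of the mice, and whether WT mice received the same agent, are not stated in the labels.

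H3K9 methylation marks silent chromatin. SUV39H1 and SUV39H2 are known for trimethylation at pericentromeric repeats, whereas EHMT1 (GLP) and EHMT2 (G9a) work as a heteromer that mostly mono- and dimethylates H3K9 in gene-rich regions. HP1 proteins bind the methylated lysine through a chromodomain, and KDM4 enzymes, the ones deleted here, demethylate its tri- and dimethylated forms. The comparison asks whether RNA of these writers and readers differed once these demethylases were lost.

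The promoters of 4 genes are shown, picked for the p-value, level or spread of the gene. Ehmt1 and Ehmt2 had the smallest p-values of the 10 genes, Cbx5 was the HP1 gene with the highest level, and Cbx1 the HP1 gene that varied most between mice. Each sequence is the 250 bases before a RefSeq transcription start (GRCm38.p6, the build also called mm10), read 5′ to 3′ on the strand of the gene, and capitals mark CG dinucleotides. The window of Ehmt1 is chr2:24919610-24919859 on the minus strand, that of Ehmt2 chr17:34898224-34898473 on the plus strand, that of Cbx1 chr11:96788885-96789134 on the plus strand, and that of Cbx5 chr15:103239853-103240102 on the minus strand.
Ehmt1: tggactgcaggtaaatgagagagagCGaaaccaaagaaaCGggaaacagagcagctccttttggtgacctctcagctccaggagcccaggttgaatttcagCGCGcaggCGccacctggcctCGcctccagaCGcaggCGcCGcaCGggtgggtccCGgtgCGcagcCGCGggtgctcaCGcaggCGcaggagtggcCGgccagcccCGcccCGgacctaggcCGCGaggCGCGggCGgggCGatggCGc
Ehmt2: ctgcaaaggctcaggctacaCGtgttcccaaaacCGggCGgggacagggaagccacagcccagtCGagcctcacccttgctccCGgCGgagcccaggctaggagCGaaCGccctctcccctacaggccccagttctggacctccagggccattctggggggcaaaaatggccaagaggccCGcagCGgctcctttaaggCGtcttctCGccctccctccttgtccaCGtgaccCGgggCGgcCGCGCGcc
Cbx1: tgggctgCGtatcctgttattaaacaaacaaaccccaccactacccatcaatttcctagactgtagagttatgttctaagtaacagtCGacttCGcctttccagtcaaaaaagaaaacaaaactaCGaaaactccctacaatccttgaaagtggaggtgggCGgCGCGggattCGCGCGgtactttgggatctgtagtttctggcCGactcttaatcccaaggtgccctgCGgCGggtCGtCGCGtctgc
Cbx5: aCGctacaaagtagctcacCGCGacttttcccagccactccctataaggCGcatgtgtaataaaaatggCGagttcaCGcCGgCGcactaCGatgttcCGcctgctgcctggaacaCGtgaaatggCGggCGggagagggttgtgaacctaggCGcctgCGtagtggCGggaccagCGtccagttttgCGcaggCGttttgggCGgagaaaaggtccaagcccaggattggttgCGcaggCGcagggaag
These windows held 26, 18, 16 and 22 CG dinucleotides in Ehmt1, Ehmt2, Cbx1 and Cbx5. RefSeq gave all 10 genes a promoter, 16 windows in all, some genes having alternative starts. Counted over windows of 300 bases, which add 50 bases after the start, the 16 windows held a median of 32 CG dinucleotides, against a median of 20 over 11181 windows of tested genes. The fewest were 8, in the downstream window of Cbx5, and 11 in the window of Atrx. For Ehmt2 the first window listed is shown, with 28 over 300 bases, and its other window held 40, the most of the 16. The window shown for Cbx5, with 29, was chosen over the downstream one for its higher CG count, so that count is not a result. A stretch just after the Cbx5 start shown was not found in its GENCODE transcripts. CCAAT, searched on both strands, was found in 5 of the 16 windows (31.3%) and in 37.9% of the windows of tested genes. TATAAA, also searched on both strands, was found in 0 of the 16 and in 6.92% of the windows of tested genes. Neither motif contains the other or CG, and a match is a description only.

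Library totals ran from 5541504 to 14872493 counts in KO mice and from 3594315 to 6044289 in WT mice. A count is a read of amplified cDNA without a molecular identifier. Levels are CPM, counts relative to a library total that was adjusted by TMM scaling (trimmed mean of M-values). Kdm4c was at 26.0 to 48.98 CPM in KO libraries and 98.8 to 148 CPM in WT libraries. The groups of Kdm4a and Kdm4b did not overlap either, with KO lower. Of all genes tested, 5.81% had groups that did not overlap, in either direction. By edgeR the adjusted p was 2.06e-05 for Kdm4c, 0.132 for Kdm4a and 0.142 for Kdm4b, so Kdm4c alone passed the threshold of 0.05. Kdm4b was low, at 1.11 to 5.15 CPM in KO and 6.71 to 12.1 CPM in WT. All 12 stem cell markers looked for were measured, and their summed level was 4067 to 4528 CPM in KO and 4834 to 5219 CPM in WT, so the groups did not overlap. The 10 markers of B, T and NK cells summed to 24.2 to 46.3 CPM in KO and 18.7 to 34.7 CPM in WT, and the 10 of neutrophils and monocytes to 67.8 to 121 and 67.2 to 91.9 CPM. Those of macrophages and dendritic cells, 10 of 11 present, summed to 202 to 271 CPM in KO and 92.3 to 194 CPM in WT, without overlap. That list went both ways, with Cd68 and Cd74 called higher by edgeR and Mrc1 called lower, at 0.989 CPM in KO and 6.09 CPM in WT, and with Vcam1 at 2.69 and 7.75 CPM. Siglech and Ncr1 were at 0 throughout. The 8 erythroid markers summed to 1326 to 1530 CPM in KO and 2276 to 2486 CPM in WT, nearly all of it Car2. Without Car2 they summed to 108 to 111 CPM in KO and 106 to 130 CPM in WT. By edgeR Car2 was the 1 called of them. DESeq2 also called Car1, which was low, at 1.93 CPM in KO and 8.11 CPM in WT. The 8 megakaryocyte markers summed to 352 to 384 CPM in KO and 248 to 289 CPM in WT. By edgeR Itga2b and Gp1ba were called higher and Thbs1 lower, at 8.95 CPM in KO and 34.4 CPM in WT. Pf4 was at 49.3 CPM in KO and 66.1 CPM in WT. DESeq2 also called Selp, at 81.1 CPM in KO and 46.9 CPM in WT. The part of these marker differences in the results below was not tested.

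None of the 10 genes passed the threshold between KO and WT. Under edgeR's quasi-likelihood test, with Benjamini-Hochberg adjustment over all 11498 genes tested and a threshold of 0.05, 0 of the 10 were called, and DESeq2 also called 0. Over all genes tested, edgeR called 0.583% and DESeq2 1.34%. At an unadjusted p under 0.05, edgeR gave 2 of the 10, Ehmt1 and Ehmt2, both lower in KO, against 11.2% of all genes in either direction and 5.45% lower in KO. The 10 log2 fold changes of KO over WT ran from -0.44 to 0.15, 6 of them above 0 and 4 below. Their median was 0.034 and the median of their sizes 0.13, beside 0.0021 and 0.21 over all genes tested. In each of the 10 genes, the 95% interval of the fitted fold change lay inside a 2-fold change in either direction. The width of these intervals draws on variation shared over all genes tested, not only on the spread of that gene between mice. A p that misses the threshold does not show that the levels were equal, and in bulk RNA fewer cells of a type and less RNA per cell cannot be told apart.

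**Figure D1:**
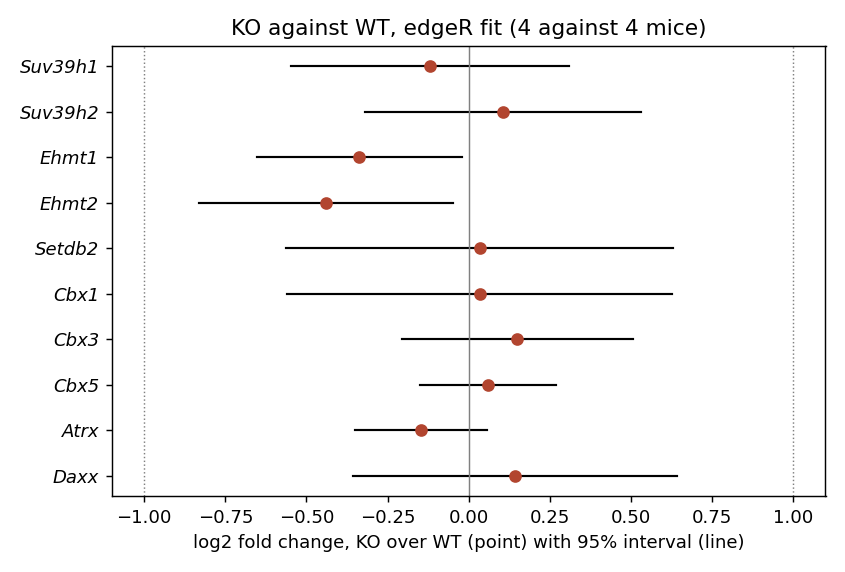
Log2 fold change of KO over WT (x axis) for the 10 genes, with the fitted value as a point, its 95% interval as a line, and dotted lines at a 2-fold change. Ehmt1 and Ehmt2 are the genes whose unadjusted interval lies below 0, and every interval stays inside the dotted lines.

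The largest differences were those of the G9a and GLP pair. Ehmt2 (chromosome 17, 34898469 to 34914052, plus strand) encodes G9a. It was at 38.6, 45.4, 46.3 and 47.4 CPM in KO mice 1 to 4, against 48.4, 69.1, 70.7 and 56.2 CPM in WT mice 1 to 4. All 4 KO libraries lay below all 4 WT libraries, with KO mouse 4 and WT mouse 1 nearly level. Of all genes tested, 5.81% had groups that did not overlap, and Ehmt2 was the 1 of the 10 that did so. Its mean was 44.4 ± 3.96 CPM in KO and 61.1 ± 10.7 CPM in WT (SD, n = 4), a log2 fold change of -0.44 (SE 0.19, 95% interval -0.83 to -0.049). The unadjusted p was 0.0288 and the adjusted p 0.375 by edgeR.

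Ehmt1 (chromosome 2, 24789928 to 24919614, minus strand) encodes GLP, the partner of G9a. It was at 82.0, 81.96, 75.9 and 101 CPM in KO mice 1 to 4, against 105, 119, 104 and 98.9 CPM in WT mice 1 to 4. KO mice 1 to 3 lay below every WT library, while KO mouse 4 lay above WT mouse 4. The means were 85.1 ± 10.7 CPM in KO and 107 ± 8.50 CPM in WT (SD, n = 4), a log2 fold change of -0.34 (SE 0.15, 95% interval -0.65 to -0.019, adjusted p = 0.409 by edgeR). The log2 ratio of Ehmt2 to Ehmt1 counts within a library, which no scaling of libraries can alter, was -0.93 ± 0.18 in KO and -0.82 ± 0.23 in WT (SD, n = 4). The difference of -0.11 was smaller than the spread between mice (exact two-sided permutation p = 0.514, 0.686 adjusted over the 4 paralogue ratios compared). The fitted value of Ehmt2 was lower in KO in all 16 alternative analyses, between -0.57 and -0.35 on the log2 scale, and that of Ehmt1 between -0.41 and -0.27. Their adjusted p over these ran from 0.236 to 0.694 for Ehmt2 and from 0.327 to 0.655 for Ehmt1, by edgeR or DESeq2.

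The SUV39H genes, writers of H3K9 trimethylation at pericentromeric heterochromatin, had KO and WT ranges that overlapped, though Suv39h2 spread more widely in KO. Suv39h1 (chromosome X, 8061171 to 8074760, minus strand) was at 37.0, 46.2, 34.2 and 34.7 CPM in KO mice 1 to 4, against 37.3, 35.2, 49.6 and 41.1 CPM in WT mice 1 to 4. Its groups overlapped over most of their range, at 38.0 ± 5.55 CPM in KO and 40.8 ± 6.33 CPM in WT (SD, n = 4). The log2 fold change was -0.12 (SE 0.21, 95% interval -0.55 to 0.31, adjusted p = 0.902 by edgeR).

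Suv39h2 (chromosome 2, 3455815 to 3475031, minus strand), the paralogue of Suv39h1, was at 45.0, 77.1, 56.2 and 40.3 CPM in KO mice 1 to 4, against 55.8, 54.6, 49.6 and 46.1 CPM in WT mice 1 to 4. KO mouse 2 was the highest of the 8 libraries and KO mouse 4 the lowest, so that the KO values enclosed the WT values. The SD was 16.4 CPM in KO and 4.49 CPM in WT, around means of 54.7 and 51.5 CPM. The log2 fold change was 0.11 (SE 0.21, 95% interval -0.32 to 0.53, adjusted p = 0.911 by edgeR), and without KO mouse 2 it was -0.089. Suv39h2 had 1.16 to 1.67 counts for each Suv39h1 count in KO and 1.00 to 1.55 in WT. On the log2 scale this ratio was 0.49 ± 0.28 in KO and 0.34 ± 0.31 in WT (SD, n = 4, exact two-sided permutation p = 0.457, 0.686 adjusted over the 4 ratios). The smallest p that 4 against 4 libraries allow is 0.0286.

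Counts of both SUV39H genes may be affected, up or down, by genes that overlap them. In GENCODE annotation of the same build, 14.6% of the exon bases of Suv39h1 lie opposite the antisense gene Gm14820, and 9.98% of those of Suv39h2 opposite Dclre1c and Gm13184. Of these antisense genes, only Dclre1c is among the counted symbols. Whether the counting used strand is not stated in the labels. Suv39h1 is X-linked, as is Atrx. The 4 Y-linked genes looked for were at group means of 53.0 to 86.4 CPM in KO and 66.5 to 109 CPM in WT, and Xist, the transcript of the inactive X chromosome, at 0.955 ± 0.885 CPM in KO and 3.12 ± 1.12 CPM in WT (SD, n = 4). No library had any of these Y-linked genes below 45.99 CPM, the lowest value of Uty, or Xist above 4.48 CPM.

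Setdb2 (chromosome 14, 59402009 to 59440884, minus strand), which encodes a SET domain protein related to SETDB1, had the lowest level of the 10 genes. It was at 20.01, 28.0, 21.6 and 23.0 CPM in KO mice 1 to 4, against 12.8, 12.9, 29.2 and 31.95 CPM in WT mice 1 to 4. WT mice 1 and 2 lay below all KO libraries and WT mice 3 and 4 above all of them, so the WT spread enclosed the KO values. The means were 23.2 ± 3.47 CPM in KO and 21.7 ± 10.3 CPM in WT (SD, n = 4), with a log2 fold change of 0.034 (SE 0.29, 95% interval -0.56 to 0.63, adjusted p = 0.983 by edgeR). Its counts ran from 46 to 323 per library, the fewest of the 10 genes.

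**Figure D2:**
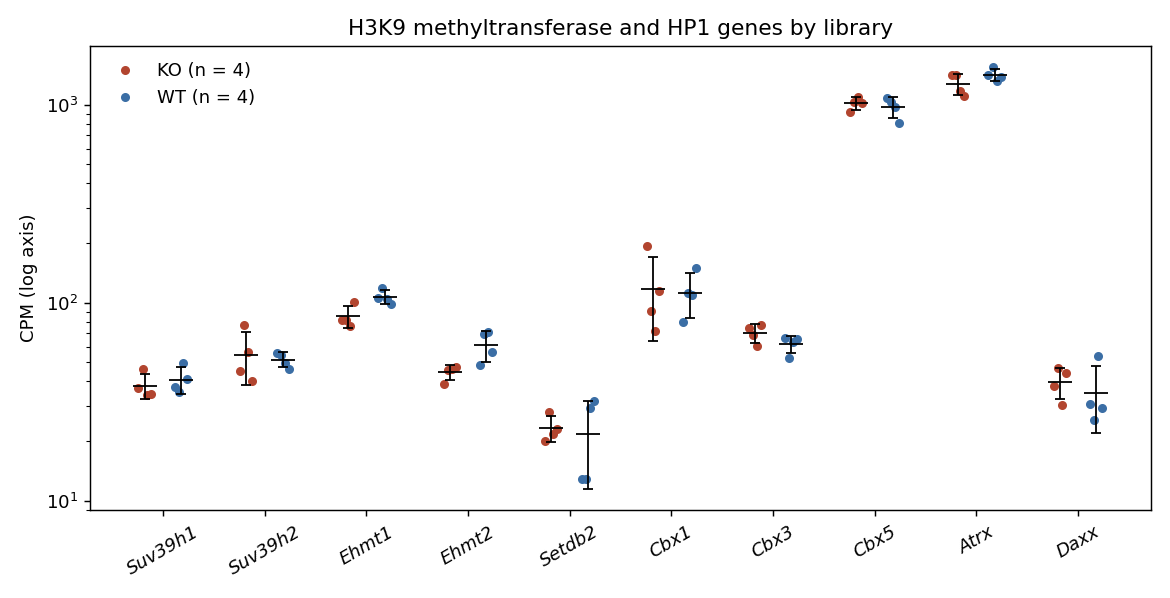
CPM on a log axis for the 10 genes, with 1 point per library, KO in red left of WT in blue, and black marks for mean ± SD (n = 4 each). Cbx5 and Atrx stand highest, between 810 and 1548 CPM, and Setdb2 lowest, and Ehmt2 is the gene whose KO and WT points do not overlap.

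The HP1 genes had unequal levels, and no level and no ratio between them passed its test between KO and WT. Cbx5 (chromosome 15, 103191544 to 103239816, minus strand) encodes HP1 alpha, which is concentrated in heterochromatin. It was at 914, 1026, 1098 and 1015 CPM in KO mice 1 to 4, against 1075, 1032, 974 and 810 CPM in WT mice 1 to 4. WT mouse 4 was lowest and KO mouse 3 highest. The means were 1013 ± 75.7 CPM in KO and 973 ± 116 CPM in WT (SD, n = 4), a log2 fold change of 0.060 (SE 0.10, 95% interval -0.15 to 0.27, adjusted p = 0.899 by edgeR).

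Cbx3 (chromosome 6, 51470360 to 51483704, plus strand) encodes HP1 gamma, which is also found at transcribed genes. It was at 74.6, 68.9, 60.1 and 77.1 CPM in KO mice 1 to 4, against 66.4, 52.6, 63.1 and 65.3 CPM in WT mice 1 to 4. A total of 3 KO libraries lay above all WT libraries, while KO mouse 3 lay below all but WT mouse 2. The means were 70.2 ± 7.53 CPM in KO and 61.9 ± 6.33 CPM in WT (SD, n = 4), a log2 fold change of 0.15 (SE 0.17, 95% interval -0.21 to 0.51, adjusted p = 0.819 by edgeR). Of the 50-base words of its transcripts, 8.67% also occur in transcripts of 16 other genes, among them 8 Cbx3 pseudogenes, so its counts are uncertain. Of Cbx1, 0 such words are shared, and of Cbx5 0.022%.

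Cbx1 (chromosome 11, 96789127 to 96808640, plus strand) encodes HP1 beta and varied more between mice than either other HP1 gene. It was at 193, 90.6, 71.6 and 114 CPM in KO mice 1 to 4, against 79.6, 112, 109 and 149 CPM in WT mice 1 to 4. KO mouse 1 was the highest of the 8 libraries and KO mouse 3 the lowest, a 2.70-fold range within KO, against 1.87-fold within WT. The means were 117 ± 53.4 CPM in KO and 112 ± 28.4 CPM in WT (SD, n = 4), with a log2 fold change of 0.034 (SE 0.28, 95% interval -0.56 to 0.63, adjusted p = 0.982 by edgeR). Without KO mouse 1 the log2 fold change was -0.33, with an adjusted p of 0.516 by edgeR.

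Markers of the cell cycle also differed between libraries, and most had a fitted fold change above 1 in KO. This held for 18 of 20 genes of G2 and mitosis and 21 of 22 of S phase. Their median log2 fold changes were 0.27 and 0.16. Of all genes tested, 49.8% had a fitted fold change below 1. In both lists edgeR called 0, and DESeq2 called 1 of G2 and mitosis and 0 of S phase. The mean centred log2 level of 20 genes of G2 and mitosis was 0.45, 0.092, -0.11 and 0.13 in KO mice 1 to 4 and -0.14, -0.25, -0.29 and 0.12 in WT mice 1 to 4. For 22 genes of S phase it was 0.25, -0.058, 0.11 and 0.088 in KO and 0.064, -0.22, -0.25 and 0.0092 in WT. KO mouse 1, highest in Cbx1, was highest in both lists, and within WT mouse 4 was highest in Cbx1 and in the mitotic list. The S-phase list also went the other way. There WT mouse 1, the lowest WT library in Cbx1, was the highest of WT. KO mouse 3, the lowest of all libraries in Cbx1, lay below only KO mouse 1 in that list. The part of the cell cycle in the spread of Cbx1, or in the differences between KO and WT, was not tested.

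**Figure D3:**
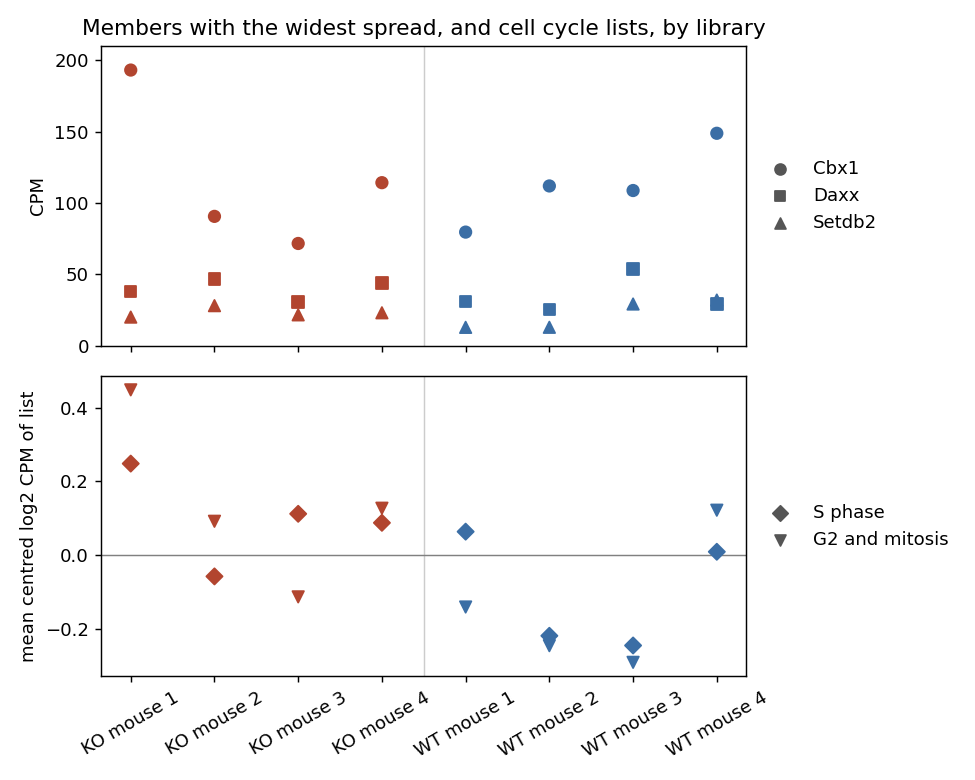
Upper panel, CPM of Cbx1, Daxx and Setdb2 in each library; lower panel, mean centred log2 CPM of the S-phase and the G2 and mitosis lists, with KO libraries in red left of WT libraries in blue. KO mouse 1 is highest in Cbx1, at 193 CPM, and in both cell cycle lists.

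Divided by exon length, so that genes can be compared with each other, Cbx5 led the HP1 genes. Of the counts per kilobase (kb) of exon summed over Cbx1, Cbx3 and Cbx5, Cbx5 took 74.4% ± 7.78 in KO and 74.5% ± 5.86 in WT (SD, n = 4). Cbx1 took 17.9% ± 7.44 in KO and 18.3% ± 5.44 in WT, and Cbx3 took 7.72% ± 0.709 and 7.16% ± 0.920. Exon length was the union over all annotated isoforms, which lowers the level per kb of a gene with long rare isoforms. The log2 ratio of Cbx3 to Cbx5 counts was -3.85 ± 0.25 in KO and -3.97 ± 0.27 in WT (SD, n = 4, exact two-sided permutation p = 0.486, 0.686 adjusted over the 4 ratios). That of Cbx1 to Cbx5 was -3.21 ± 0.72 in KO and -3.14 ± 0.54 in WT (SD, n = 4, exact two-sided permutation p = 0.914, also 0.914 adjusted).

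**Figure D4:**
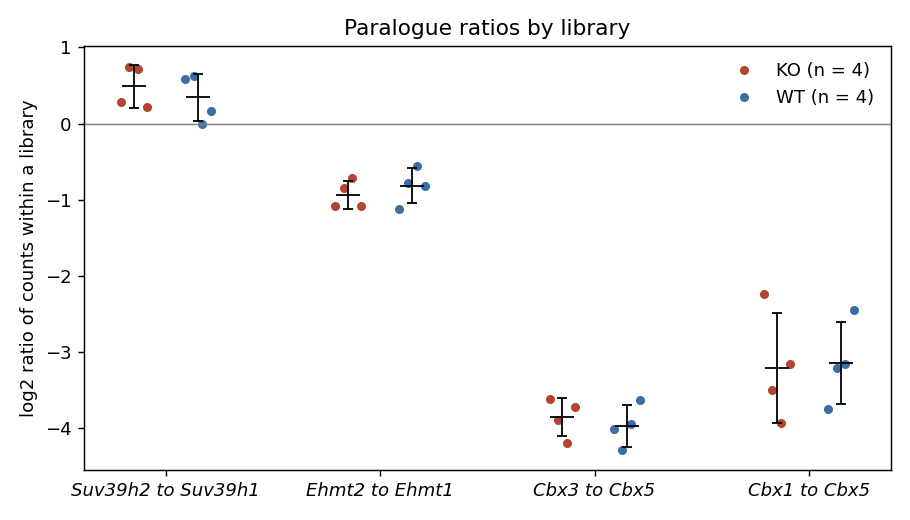
Log2 ratio of counts of a gene to its paralogue within each library (y axis), with KO in red left of WT in blue and black marks for mean ± SD (n = 4 each). KO and WT overlap in all 4 ratios, and Cbx1 to Cbx5 has the widest spread, from -3.94 to -2.24 in KO.

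Atrx and Daxx encode a chromatin remodeller and a chaperone of the histone variant H3.3, which together place H3.3 at telomeres and pericentromeric repeats. Atrx (chromosome X, 105797615 to 105929403, minus strand) had the highest CPM of the 10 genes. It was at 1418, 1405, 1170 and 1110 CPM in KO mice 1 to 4, against 1408, 1548, 1317 and 1377 CPM in WT mice 1 to 4. KO mice 3 and 4 lay below all WT libraries, and KO mice 1 and 2 lay among them. The means were 1276 ± 159 CPM in KO and 1412 ± 97.8 CPM in WT (SD, n = 4), a log2 fold change of -0.15 (SE 0.099, 95% interval -0.35 to 0.058, adjusted p = 0.633 by edgeR).

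Daxx (chromosome 17, 33909414 to 33915590, plus strand) showed overlapping groups. It was at 38.0, 46.7, 30.6 and 44.0 CPM in KO mice 1 to 4, against 30.9, 25.5, 53.9 and 29.2 CPM in WT mice 1 to 4. WT mouse 3 was the highest of the 8 libraries, and the other WT libraries lay close to the lowest KO library or below it. The means were 39.8 ± 7.17 CPM in KO and 34.8 ± 12.9 CPM in WT (SD, n = 4), with a log2 fold change of 0.14 (SE 0.24, 95% interval -0.36 to 0.64, adjusted p = 0.899 by edgeR). Without WT mouse 3 it was 0.43.

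On the scale of CPM per kb of exon, the order of the levels was led by the same genes in both groups. Cbx5 was at 113 ± 8.41 per kb in KO and 108 ± 12.9 in WT (SD, n = 4), and 98.0% of 11033 genes with a length had a lower mean over the 8 libraries. Atrx followed at 58.6 ± 7.30 per kb in KO and 64.9 ± 4.49 in WT, and Cbx1 at 27.5 ± 12.5 and 26.3 ± 6.64. The ranges of these 3 did not overlap those of the next gene in the order within either group, although the highest KO library of Suv39h2, at 17.5 per kb, lay above the lowest of Cbx1, at 16.8. Below them, neighbours overlapped, with group means from 5.72 per kb for Setdb2 to 12.6 for Daxx in KO and from 5.36 for Setdb2 to 13.2 for Ehmt1 in WT, except that Ehmt1 and Ehmt2 were neighbours without overlap in KO. Ehmt1 came next after Cbx1 in WT, whereas in KO the means of Daxx, Suv39h2 and Cbx3 were above that of Ehmt1. The median over all 11033 genes was 6.97 per kb, which Setdb2 alone of the 10 lay below.

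Genes that work with these enzymes and readers did not pass edgeR's threshold either. Of 12 genes for partners of the methyltransferases and related PR domain genes, edgeR called 0 and DESeq2 called 1, Mecom. By edgeR, 0 were higher and 1 lower at an unadjusted p under 0.05, beside 11.2% of all genes tested in either direction. The median log2 fold change was -0.13. The lower gene was Mecom, a PR domain regulator of stem cells, at 251 ± 23.9 CPM in KO and 336 ± 27.0 CPM in WT (SD, n = 4, log2 fold change -0.43, adjusted p = 0.106 by edgeR and 0.038 by DESeq2). Its groups did not overlap, which held for 5.81% of all genes tested. L3mbtl2, a chromatin reader found in complexes with G9a, was at 37.8 ± 14.8 CPM in KO and 26.1 ± 3.28 CPM in WT (SD, n = 4, log2 fold change 0.51, adjusted p = 0.479 by edgeR).

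Of 22 genes for HP1-bound and other heterochromatin proteins, edgeR and DESeq2 called 0, and by edgeR 2 were higher and 0 lower at an unadjusted p under 0.05. These were Hp1bp3, a linker histone-like gene, at 474 ± 30.6 CPM in KO and 387 ± 50.2 CPM in WT, and Sgol1, the protector of centromeric cohesion, at 81.9 ± 9.48 CPM in KO and 61.4 ± 5.66 CPM in WT (SD, n = 4, edgeR adjusted p = 0.301 and 0.381). Of 14 genes for H3.3 and histone chaperones, edgeR and DESeq2 also called 0. By edgeR, 1 was higher at an unadjusted p under 0.05, Ubn2, a subunit of the HIRA complex, at 265 ± 51.0 CPM in KO and 214 ± 11.9 CPM in WT (SD, n = 4, adjusted p = 0.384 by edgeR). Hira itself was at 36.9 ± 6.61 CPM in KO and 44.7 ± 8.89 CPM in WT (SD, n = 4, adjusted p = 0.615 by edgeR). The medians of these lists, 0.031 and 0.0094 on the log2 scale, lay close to that of all genes.

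**Figure D5:**
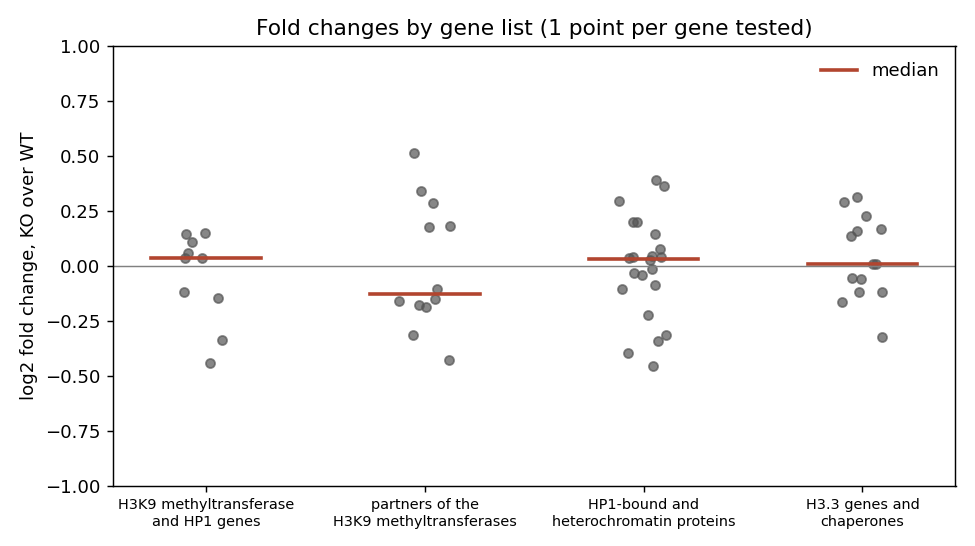
Log2 fold change of KO over WT (y axis) for each tested gene of 4 lists, 1 point per gene, with the median as a red line. The 10 H3K9 methyltransferase and HP1 genes and the 3 lists of associated genes centre near 0, with medians of 0.034, -0.13, 0.031 and 0.0094.

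The genes with the most similar pattern over the 8 libraries were sought for the 3 members with the widest spread, by the root mean square difference of log2 CPM centred per gene, among 6710 genes with a mean of at least 20 CPM. For Setdb2 they were Rsad2 (0.22) and Zfp568 (0.23), where the median over all candidates was 0.52. Rsad2, an antiviral interferon-induced gene, was at 47.2, 50.1, 77.0 and 113 CPM in WT mice 1 to 4, and so shared with Setdb2 the low WT mice 1 and 2 and the high WT mice 3 and 4. In KO mice 1 to 4 it was at 78.5, 113, 58.96 and 77.6 CPM, and like Setdb2 it was highest in KO mouse 2. For Cbx1 the nearest genes were Hmgb3, a high mobility group gene, and Xpa, a DNA repair gene (0.13 and 0.15, median 0.496). Hmgb3 was at 186 CPM in KO mouse 1 and 155 CPM in WT mouse 4, the highest of each group. For Daxx they were Ncoa3, a nuclear receptor coactivator, and Acad9 (0.14 and 0.15, median 0.43), and Ncoa3 was highest in WT mouse 3, at 195 CPM. These genes were picked as the nearest of many, so their nearness is a description.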

How the data were processed

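RNA-seq counts of haematopoietic stem cells from 4 KO and 4 WT mice were used. Each deposited table holds raw counts per gene symbol for 1 library. Per the labels' protocols, RNA was amplified with the Nugen Ovation system, and reads were mapped with RNA STAR (Galaxy version 2.4.0d-2) and counted with htseq-count (Galaxy version 0.6.1galaxy1). The submitters' processing notes name mm10. The annotation used for counting is not stated there.

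Counts were tested with edgeR 4.0.16 in R 4.3.3 (quasi-likelihood, robust, TMM, filterByExpr with minimum count 10 and total 15), with genotype as the only term, and adjusted by Benjamini-Hochberg. SE is the log2 fold change divided by the square root of F. The procedure was tested on simulated data. Ratios used a pseudocount of 0.5 and an exact permutation test over libraries. Alternatives were DESeq2 1.42.0, its size factors, library totals, no filter, a filter of 5 CPM in 4 libraries, legacy quasi-likelihood, counts thinned to 3594315, the mouse number as a block, and omission of each library.

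The members and lists were chosen with earlier results of these data known. Named were all members, the Kdm4 genes, and for each of the 3 lists of associated genes the called genes or the 2 of smallest p. Marker genes called by edgeR were also named, with Car1, Selp, Vcam1 and Pf4, chosen after their values were seen. The last were the 2 nearest genes in pattern of the 3 members with the widest spread. Intervals are those of the fitted fold change and take their width from the variation between these 8 libraries.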

Additional observations from a re-analysis of the deposited data

How the results depend on the processing

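The count of called members stayed at 0 in all 16 alternatives. Over all genes the count of 67 became 198 without a filter and 154 with DESeq2, and ran from 35 (without WT mouse 3) to 70 when 1 library was left out, with 44 without WT mouse 2 or KO mouse 4; the cause was not tested. Of 160 log2 fold changes of members under alternatives, 151 kept their direction and 9 turned, none past the threshold. Those that turned were Suv39h2 (-0.089 without KO mouse 2, up to 0.21), Setdb2 (-0.012 with thinned counts, -0.067 without KO mouse 2, -0.18 without WT mouse 1 and -0.10 without WT mouse 2, up to 0.30), Cbx1 (-0.33 without KO mouse 1, -0.11 without WT mouse 1 and -0.0030 with the replicate block, up to 0.24) and Cbx5 (-0.023 without WT mouse 4, up to 0.11); the cause was not tested. The difference of the log2 ratio of Cbx1 to Cbx5, -0.066, turned to 0.031 without KO mouse 2, 0.18 without KO mouse 3 and 0.17 without WT mouse 4, over a range from -0.39 to 0.18. The other ratios kept their direction, from 0.029 to 0.24 for Suv39h2 to Suv39h1, -0.21 to -0.028 for Ehmt2 to Ehmt1 and 0.010 to 0.23 for Cbx3 to Cbx5 when 1 library was left out.

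Deviations of same-numbered KO and WT mice had correlations between -0.092 and -0.0089. The highest of any KO library with any WT library was 0.142, so this check cannot decide whether mouse numbers pair the libraries. With the number as a replicate block, 57 genes and 0 members were called, and the block gave exact sign-flip p of 0.625, 0.25, 0.5 and 1.0 for Suv39h2 to Suv39h1, Ehmt2 to Ehmt1, Cbx3 to Cbx5 and Cbx1 to Cbx5, where 0.125 is the smallest p that 4 pairs allow. Unadjusted p under alternatives ran from 0.0075 to 0.104 for Ehmt2 and from 0.019 to 0.11 for Ehmt1. With 4 mice per group the 95% intervals are the limit of what could be seen, widest for Setdb2, Daxx and Cbx1.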
